A study of Rattus norvegicus and Bos taurus with 12 samples.

Results

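The genes described here are 10 markers of endothelial cells, the cells that line blood vessels. They were chosen by name, with earlier results of these data known, and rows with these symbols were taken from the 2 deposited tables. All 10 (Vwf, Tek, Kdr, Pecam1, Cdh5, Tie1, Flt1, Emcn, Esam and Egfl7) were among the 7052 genes of the rat table. In the bovine table of 2115 genes, ESAM alone had a row and the other 9 did not. Both tables hold genes that had been kept for a difference between the groups. The direction of a change can be read from them but its presence cannot. Sizes come from the same libraries as that selection and may be overstated, above all for small changes. The intervals do not correct for this. A gene without a row is not shown to be unchanged.

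The rat libraries came from adult rat ventricular myocytes (ARVM) of Sprague Dawley rats, heart muscle cells released from the ventricle with collagenase. In the 3 control libraries (labelled con4, con5 and con6) the ARVM were, per the study, freshly isolated and untreated. The 3 other preparations (ha2, ha209 and ha211) were kept for 7 days, per the labels. Per the study, their medium was conditioned by cardiac fibroblasts of calves with pulmonary hypertension (PH-CM). On the study's account, time in culture and PH-CM cannot be told apart between these groups, and no ARVM cultured without PH-CM were analysed here. The bovine libraries came from right ventricular fibroblasts (Cfib) at low passage, 3 from control (CO) calves kept at Denver altitude and 3 from neonatal calves that developed pulmonary hypertension (PH) under hypobaric hypoxia. Per the labels, all 12 libraries were treated with serum from cattle at low or high altitude, which differs from the study's account. Which account holds is not settled here. The names freshly isolated, CO, PH and PH-CM follow the study, and each contrast below is to be read with that limit. No label states whether the ARVM libraries came from separate rats, so p-values measure the spread between these libraries.

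Endothelial cells are joined to each other by VE-cadherin, PECAM-1 and related proteins, and their growth and rest are set by receptor tyrosine kinases for vascular endothelial growth factors and angiopoietins. In the heart they form a dense capillary bed around each myocyte. In a bulk preparation of myocytes, fewer endothelial cells and less RNA of a gene per cell cannot be told apart.

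Upstream sequence is given for 3 receptor genes that fell in PH-CM ARVM and for Emcn, the one marker that rose, so that the start regions of genes with opposite directions can be read side by side. Of the 10 markers, 5 had an entry in the RefSeq promoter table (build GRCr8), among them Egfl7 with 2 different windows, which are not printed. Each sequence is the 250 bases before the annotated start, 5′ to 3′ on the strand of the gene. Capitals mark GGAA or its reverse complement TTCC, the core letters that ETS factors recognise, a family that includes known regulators of endothelial genes. Tie1 lies on the minus strand (chr5:137304982-137305231), and Kdr (chr14:32571813-32572062), Flt1 (chr12:12333180-12333429) and Emcn (chr2:228564289-228564538) lie on the plus strand.
Tie1: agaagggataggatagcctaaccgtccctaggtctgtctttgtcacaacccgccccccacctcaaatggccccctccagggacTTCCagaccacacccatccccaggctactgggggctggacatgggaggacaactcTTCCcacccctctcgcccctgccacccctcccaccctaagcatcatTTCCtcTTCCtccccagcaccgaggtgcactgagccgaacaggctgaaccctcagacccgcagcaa
Kdr: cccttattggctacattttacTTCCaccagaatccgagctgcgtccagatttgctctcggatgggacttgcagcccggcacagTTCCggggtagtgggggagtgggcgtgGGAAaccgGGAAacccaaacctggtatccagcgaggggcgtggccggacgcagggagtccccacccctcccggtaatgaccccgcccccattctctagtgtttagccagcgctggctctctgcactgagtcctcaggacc
Flt1: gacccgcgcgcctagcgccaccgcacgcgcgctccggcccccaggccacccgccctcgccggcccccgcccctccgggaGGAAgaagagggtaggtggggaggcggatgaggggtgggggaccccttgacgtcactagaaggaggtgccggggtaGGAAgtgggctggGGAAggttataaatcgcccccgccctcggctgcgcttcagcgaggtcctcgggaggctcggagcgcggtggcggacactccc
Emcn: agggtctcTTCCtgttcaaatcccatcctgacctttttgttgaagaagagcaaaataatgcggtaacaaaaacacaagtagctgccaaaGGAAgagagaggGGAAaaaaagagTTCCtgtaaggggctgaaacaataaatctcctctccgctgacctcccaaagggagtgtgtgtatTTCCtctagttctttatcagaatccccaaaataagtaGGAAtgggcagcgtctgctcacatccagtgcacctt

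GGAA or TTCC occurred 4 times in the window of Tie1, 4 times in that of Kdr, 3 times in that of Flt1 and 6 times in that of Emcn. Of all 33469 windows of this length, 93.2% held at least 1 such match, with a median of 3. The GC content was 61.6% for Tie1 and for Kdr, 73.2% for Flt1 and 44.4% for Emcn. GTAAACA, a forkhead core, and AGATAA, which GATA factors recognise, were searched on both strands as well. Neither was found in any of the 4 windows, and they occurred in 3.21% and 10.3% of all windows. Only these exact letters were searched, so other forms that forkhead or GATA factors recognise may be present. The Emcn window thus held the most GGAA letters and the lowest GC content of the 4, which is a description of these letters and not of binding.

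The deposited ARVM values are reads per gene after division by the size factor of the library. They are called normalized read counts below, in the order con4, con5, con6 and ha2, ha209, ha211. The values are not scaled by gene length, so levels are compared between libraries and not between genes. Where a gene is given as a percent of another, only the change of that percent between libraries is read. Between 106 and 1801 reads per library lay behind each value of the 10 markers. Log2 fold changes (PH-CM minus freshly isolated) are on the scale of log2(value + 1) and were tested with limma over all 7052 genes, adjusted by Benjamini-Hochberg at a threshold of 0.05. Of the 10 markers, 9 were lower and 1 was higher in PH-CM ARVM. Over all listed genes, limma called 43.7% lower and 53.9% higher. On the recovered reads, edgeR and DESeq2 called 43.7% and 43% of all genes lower, and 9 of the 10 markers each. The median log2 fold change of the 10 was −1.30, beside 0.37 over all listed genes. The groups did not overlap for any of the 10, as for 100% of the listed genes, which had been selected for this.

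**Figure D1:**
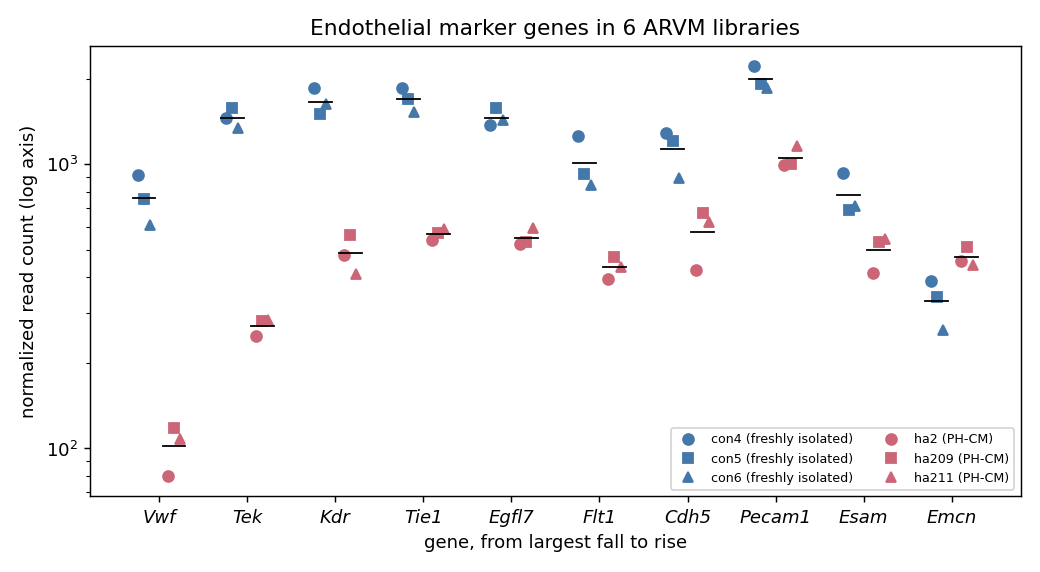
Normalized read count (log axis) of each endothelial marker in the 6 ARVM libraries, freshly isolated in blue and PH-CM in red, 1 symbol per library and a line at each group mean. Vwf and Tek show the widest gaps between the groups, and Emcn is the gene with PH-CM above freshly isolated.

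Among the receptors, the pair that bind angiopoietins or partner them fell to 18.5% and 33.7% of the control level. Tek (also known as Tie2), the receptor for the angiopoietins, had 1461, 1576 and 1345 normalized read counts in freshly isolated ARVM and 249, 280 and 284 in PH-CM ARVM. Its mean of 1460 ± 115 (SD, n = 3) fell to 271 ± 19.2, a log2 fold change of −2.43 ± 0.10 (SE; limma, adjusted p = 4.53e-07). The 3 PH-CM libraries lay close together and far under every freshly isolated library. Tie1, the orphan partner of Tek, had 1853, 1701 and 1532 against 544, 575 and 594. Its log2 fold change was −1.56 ± 0.09 (SE; limma, adjusted p = 2.24e-06). Within a library, Tek was 78.8%, 92.6% and 87.8% of Tie1 in freshly isolated ARVM and 45.8%, 48.7% and 47.7% in PH-CM ARVM. These ratios do not depend on how a library was scaled.

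The receptors for vascular endothelial growth factor fell as well, Kdr by more than Flt1. Kdr (VEGFR2), the main signalling receptor, had 1861, 1506 and 1628 normalized read counts in freshly isolated ARVM and 482, 565 and 411 in PH-CM ARVM. Its log2 fold change was −1.78 ± 0.13 (SE; limma, adjusted p = 9.02e-06), which left 29.2% of the control. Flt1 (VEGFR1), which binds the same ligand and limits its supply to Kdr, had 1264, 928 and 849 against 395, 473 and 435. Library con4 was the highest of the freshly isolated group and the PH-CM libraries differed little. Flt1 retained 42.8%, a log2 fold change of −1.20 ± 0.16 (SE; limma, adjusted p = 0.000189). Kdr was 147%, 162% and 192% of Flt1 in freshly isolated ARVM and 122%, 120% and 94.6% in PH-CM ARVM.

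Vwf and Egfl7, which encode secreted proteins, stood at different places in the order. Vwf encodes von Willebrand factor, which endothelial cells store and release to bind platelets. It had 919, 755 and 614 normalized read counts in freshly isolated ARVM and 80.2, 118 and 108 in PH-CM ARVM. The mean fell from 763 ± 153 (SD, n = 3) to 102 ± 19.7, which is 13.4% of the control. This was the largest change of the 10, with a log2 fold change of −2.89 ± 0.21 (SE, 95% interval −3.37 to −2.40; limma, adjusted p = 8.06e-06). Egfl7, a secreted factor of vessel formation, had 1372, 1584 and 1431 against 523, 534 and 597, with a log2 fold change of −1.40 ± 0.09 (SE; limma, adjusted p = 4.01e-06).

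Cdh5, Pecam1 and Esam, genes for junction and adhesion proteins, fell least among the 9. The log2 ratios of Cdh5 and of Pecam1 to Flt1 within a library overlapped between the groups. The order holds among the markers only, and the selectins described below fell by more. Cdh5 encodes VE-cadherin, the adhesion protein of endothelial junctions. It had 1290, 1214 and 897 normalized read counts in freshly isolated ARVM and 427, 675 and 628 in PH-CM ARVM. The spread between libraries was wide in both groups (standard deviations of 208 and 132), and the log2 fold change was −0.98 ± 0.20 (SE; limma, adjusted p = 0.00207). Pecam1, which encodes the surface protein CD31, had 2214, 1926 and 1860 against 993, 1003 and 1160. It retained 52.6% of the control level, a log2 fold change of −0.93 ± 0.09 (SE; limma, adjusted p = 4.92e-05). Esam, an adhesion protein of endothelial tight junctions, had 934, 693 and 712 against 414, 533 and 548. The nearest libraries of the 2 groups were at 693 and 548, and the log2 fold change was −0.64 ± 0.16 (SE; limma, adjusted p = 0.00483). When each library was scaled to the total of the listed reads instead, Esam had a log2 fold change of −0.22 and did not pass (limma, adjusted p = 0.222).

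Emcn went the other way. It encodes endomucin, a sialomucin on the surface of capillary and venous endothelium. The freshly isolated libraries had 388, 341 and 261 normalized read counts and the PH-CM libraries 458, 512 and 443. The mean rose from 330 ± 63.9 (SD, n = 3) to 471 ± 36.2, or 1.43-fold, a log2 fold change of 0.53 ± 0.16 (SE, 95% interval 0.15 to 0.90; limma, adjusted p = 0.0136). Library con6 was the lowest of the freshly isolated group. Without con6 the log2 fold change was 0.37 (limma, adjusted p = 0.0328), and over the 6 fits that each lacked a library it ran from 0.37 to 0.65. Emcn was 17.5%, 17.7% and 14.0% of Pecam1 in freshly isolated ARVM and 46.2%, 51.0% and 38.1% in PH-CM ARVM.

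**Figure D2:**
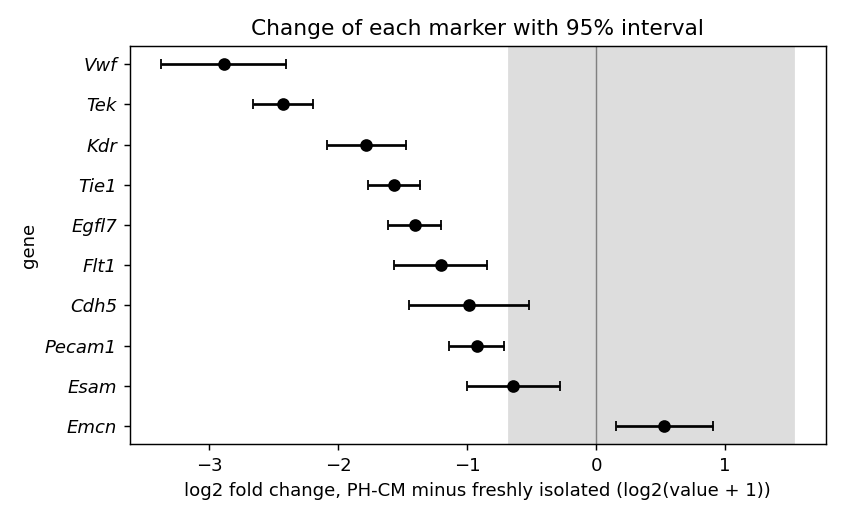
Log2 fold change (PH-CM minus freshly isolated ARVM) of each marker with its 95% interval from limma, and in grey the middle 50% of all 7052 listed genes. The intervals run from −3.37 at the low end of Vwf to 0.90 at the high end of Emcn. That of Emcn lies above 0, which was likely from the start because the genes had been selected for a difference. The log2 fold changes of Esam and Emcn lie within the grey band.

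The size of the change was also compared between markers. For each of the 45 pairs of markers, the log2 ratio of one to the other was taken within each library. In 35 pairs, or 77.8%, the ratios of the 2 groups did not overlap and in 10 they did. Over all pairs of listed genes, which had been selected for separated groups, the share was 82.6%. Among the 36 pairs of the 9 markers that fell it was 72.2%, beside 62.8% of all pairs of genes called lower. These shares lie near those of the listed genes, and nothing particular to the markers is read from them. Of the 9 pairs that are neighbours in the order of change, 3 did not overlap, namely Vwf with Tek, Tek with Kdr, and Esam with Emcn. Kdr, Tie1, Egfl7, Flt1, Cdh5, Pecam1 and Esam formed a run in which no neighbour differed from the next beyond the spread of the libraries. Neighbours were set by the order of change in these same values, so the run does not show equal falls. Further apart in the run, some pairs did not overlap, such as Kdr with Esam, and others did, such as Kdr with Egfl7. Vwf was 41.5%, 39.2% and 33.0% of Pecam1 in freshly isolated ARVM and 8.07%, 11.8% and 9.34% in PH-CM ARVM. With 3 libraries per group, the smallest two-sided p of an exact permutation test is 0.1, and these ratios are given as a description.

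A further list of endothelial genes was written for this comparison, with earlier results of these data known. Its 57 genes were examined in the same fit. Of these, 32 were listed, with 26 lower and 6 higher in PH-CM ARVM and a median log2 fold change of −1.14. Over all listed genes 43.7% were called lower and 53.9% higher. The largest falls were those of the leukocyte-capturing selectins and the apelin receptor. Sele (E-selectin) had 975 ± 119 normalized read counts (SD, n = 3) in freshly isolated ARVM and 22.0 ± 11.2 in PH-CM ARVM, a log2 fold change of −5.51. Aplnr, the apelin receptor, fell from 1631 ± 120 to 53.8 ± 16.3, a log2 fold change of −4.93, and Selp (P-selectin) fell from 1348 ± 111 to 63.5 ± 17.9. Arhgef15, a guanine nucleotide exchange factor, had a log2 fold change of −2.44, Gata2, a transcription factor, one of −2.22 and Adgrf5, an adhesion G protein-coupled receptor, one of −2.14.

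The 6 that rose were Nostrin, Plvap, Dll4, Icam1, Efnb2 and Gja5. Nostrin, which binds endothelial nitric oxide synthase, had 0, 5.36 and 7.23 normalized read counts in freshly isolated ARVM and 23.4, 15.5 and 39.8 in PH-CM ARVM. Plvap, a protein of endothelial fenestrae and caveolae, rose from 21.3 ± 10.8 to 89.2 ± 23.4 (SD, n = 3), a log2 fold change of 2.13. The Notch ligand Dll4 had a log2 fold change of 1.19, ephrin Efnb2 one of 1.11 and connexin 40, encoded by Gja5, one of 1.04. These last 3 are known as genes of arterial endothelium, a grouping made after their values were seen. Apart from the 6 that rose, every gene of the list, arterial ones included, fell or had no row, so no arterial shift is read from these 3. Icam1, which many activated cell types express, rose from 1144 ± 88.1 to 2514 ± 344. The adjusted p of the 6 ran from 3.99e-05 for Icam1 to 0.0112 for Nostrin with limma.

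**Figure D3:**
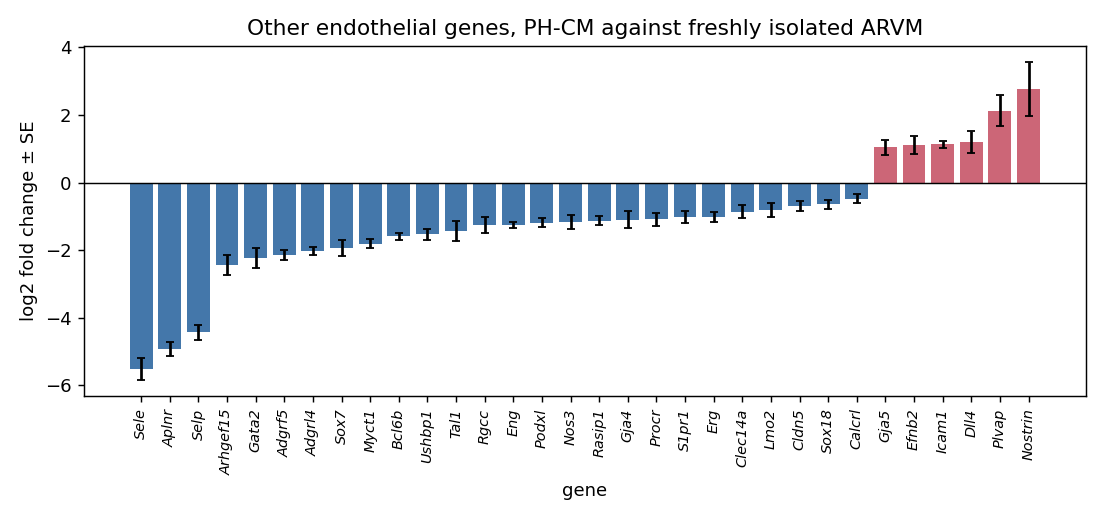
Log2 fold change with standard error (limma) of the 32 listed genes of a further endothelial list, PH-CM against freshly isolated ARVM, with falls in blue and rises in red. Sele, Aplnr and Selp lie lowest, apart from the others, and 6 genes lie above 0.

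Genes for the ligands of these receptors and related vessel factors were listed in 9 of 13 cases, with 2 lower and 7 higher in PH-CM ARVM. Over all listed genes 53.9% were called higher, and nothing particular to the ligands is read from this count. Vegfa, the ligand of Kdr and Flt1, had 10595, 10787 and 11486 normalized read counts in freshly isolated ARVM and 5691, 8158 and 5779 in PH-CM ARVM, a log2 fold change of −0.76. Vegfb, a ligand of Flt1, fell from 1583 ± 1.51 to 686 ± 4.98 (SD, n = 3), a log2 fold change of −1.20. The ligands of the lymphatic receptor rose. Vegfc had 7.91, 7.50 and 14.5 against 188, 168 and 165, and Vegfd, listed under its older symbol Figf, had 12.7, 25.7 and 6.20 against 411, 295 and 465. Angpt1, the activating ligand of Tek, rose from 191 ± 28.4 to 345 ± 77.4 (log2 fold change 0.83), and Apln, the ligand of Aplnr, rose from 573 ± 15.3 to 1952 ± 441 (1.74). Angptl2, an angiopoietin-like protein, had a log2 fold change of 2.87, and the vasoactive peptides Adm and Edn1 had 1.24 and 1.03. Adjusted p for the 9 ran from 1.16e-06 for Vegfb to 0.00591 for Angpt1 with limma. Ligand and receptor thus moved in opposite directions for Angpt1 with Tek and for Apln with Aplnr, and in the same direction for Vegfa with Kdr.

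Of 6 genes of lymphatic endothelium, 4 were listed. Flt4 (VEGFR3), the receptor for Vegfc and Vegfd, had 83.9, 98.5 and 83.7 normalized read counts in freshly isolated ARVM and 166, 269 and 215 in PH-CM ARVM, a log2 fold change of 1.26 (limma, adjusted p = 0.00114). Pdpn, which fibroblasts also express, had a log2 fold change of 3.46. The chemokine Ccl21 had one of −2.60 and the secreted glycoprotein Reln one of −1.33, so the 4 did not share a direction. Lyve1 and Prox1, the defining genes of this cell type, had no row.

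Markers of other cell types moved in the same libraries. Summed over the 10 endothelial markers, the level was 13556, 12223 and 11129 normalized read counts in freshly isolated ARVM and 4564, 5268 and 5208 in PH-CM ARVM, or 2.45-fold lower. Sums over 13 listed cardiomyocyte genes of 14 ran from 1631672 to 1658294 and from 173410 to 214327, which is 8.45-fold lower, with Myh7 as the one member called higher. Those over 12 fibroblast genes of 12 ran from 1846 to 2425 and from 100466 to 145904 and were 55.3-fold higher, led by Col3a1, Col1a2 and Col1a1. Thy1 had reads in a single freshly isolated library, and Mfap5 in none. Leukocyte genes (13 of 14 listed) ran from 301 to 438 and from 8565 to 12899, 28.9-fold higher, led by Lyz2, and Ptprc had reads in a single freshly isolated library. Mural genes (12 of 12 listed) ran from 7329 to 8375 and from 36140 to 54619, with 9 higher and 3 lower. Over all listed genes 53.9% were called higher and 43.7% lower. Tagln and Acta2, which myofibroblasts also express, made up most of that rise, and Pdgfrb and Mcam, found on pericytes among other cells, rose with log2 fold changes of 2.49 and 1.44. The 3 that fell were Rgs5 (−1.36), Abcc9 (−1.36) and Cspg4 (−0.46), which pericytes express as well, so pericyte genes did not share a direction. Erythrocyte genes (4 of 7 listed) ran from 2140 to 2548 and from 3.39 to 23.3, and Hbb, Hba1 and Hbb-b1 had no read in any PH-CM library. The endothelial sum fell by less than the cardiomyocyte sum. The part of these cell types in the results for the endothelial markers was not tested.

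**Figure D4:**
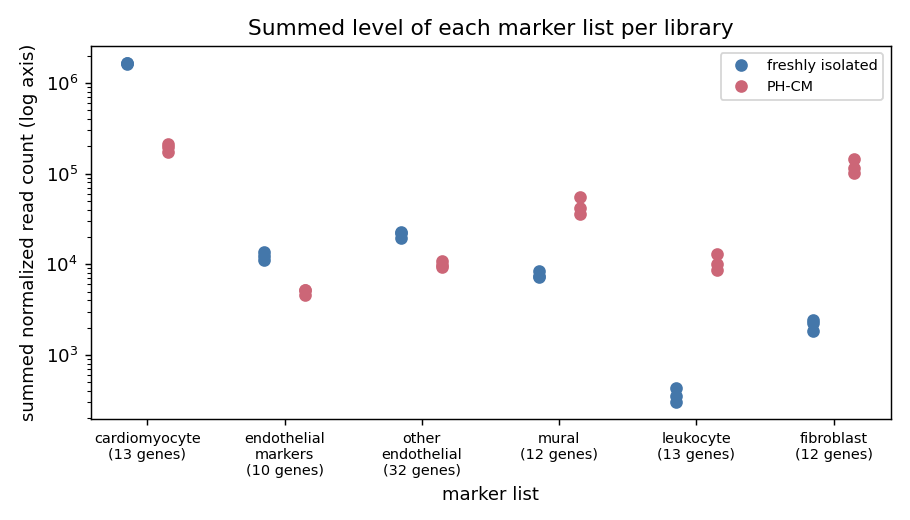
Summed normalized read count (log axis) of 6 marker lists in each library, freshly isolated ARVM in blue and PH-CM ARVM in red, with the number of listed genes under each name. Endothelial markers lie between 11129 and 13556 in freshly isolated and between 4564 and 5268 in PH-CM libraries, whereas mural, leukocyte and fibroblast sums are higher in all 3 PH-CM libraries.

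In bovine Cfib, ESAM was the one endothelial marker with a row. The deposited bovine values are length-scaled (FPKM or TPM, not stated which), and their depth is unknown. ESAM had 6.83, 5.58 and 7.54 in CO Cfib and 2.89, 2.94 and 2.03 in PH Cfib. The mean fell from 6.65 ± 0.994 (SD, n = 3) to 2.62 ± 0.509, which is 39.4% of CO. Every CO library lay above every PH library, and the groups were likewise separated for 100% of the 2115 listed genes, as a result of their selection. The log2 fold change was −1.08 ± 0.15 (SE; limma over 2115 genes, adjusted p = 0.000611). Among those genes limma called 39.4% lower and 58.2% higher. Log2 fold changes in Cfib are on the scale of log2(value + 1) as well. At low signals the added 1 makes them smaller than the change of the raw signal. The log2 fold change of ESAM ran from −1.19 to −0.96 over the fits that lacked a library. In ARVM the gene had a log2 fold change of −0.64, in another organism, cell type and contrast.

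Of the 57 further endothelial genes, 10 were listed for Cfib, with 2 lower and 8 higher in PH Cfib. Over all listed Cfib genes 39.4% were called lower and 58.2% higher, and nothing particular to endothelial genes is read from this count. GJA5 had 17.9, 30.3 and 18.7 in CO Cfib and 4.14, 4.62 and 4.64 in PH Cfib (log2 fold change −2.05), and NOSTRIN had 8.23, 6.92 and 11.0 against 2.16, 2.40 and 2.91 (−1.46). CLEC14A, an endothelial C-type lectin, had 0.0386, 0 and 0.0514 in CO Cfib and 2.90, 2.35 and 2.69 in PH Cfib. ELTD1, an adhesion G protein-coupled receptor of vessels (Adgrl4 in the rat), rose from 2.18 ± 0.444 to 9.61 ± 0.569 (SD, n = 3), a log2 fold change of 1.75. PTPRB, the phosphatase that acts on Tek, rose from 0.217 ± 0.0971 to 1.98 ± 0.281 (SD, n = 3), a log2 fold change of 1.29. The ETS factor ERG rose from 1.40 ± 0.433 to 3.64 ± 0.317 (0.96). On the raw signal the rise was 9.11-fold for PTPRB, 4.41-fold for ELTD1 and 2.59-fold for ERG. EPHB4, an ephrin receptor, had a log2 fold change of 0.63, and CD34, which fibroblast progenitors also carry, rose from 124 ± 5.86 to 187 ± 4.62 (log2 fold change 0.59). The adjusted p of the 8 genes named in this paragraph, GJA5 and NOSTRIN included, ran from 7.86e-06 for CLEC14A to 0.00419 for EPHB4 with limma. The remaining genes that rose are not named here. ESAM, GJA5 and NOSTRIN thus fell while most listed endothelial genes rose.

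Of the ligands, ANGPT1 fell in PH Cfib, from 4.75 ± 0.527 to 0.726 ± 0.0464 (SD, n = 3, log2 fold change −1.73). ADM rose with a log2 fold change of 1.30, and ANGPTL4, an angiopoietin-like protein of lipid metabolism, with one of 1.47. The rows for VEGFA, KDR and TEK were not among the selected bovine genes. Of the other cell types, 5 of 6 listed mural genes and 5 of 6 listed leukocyte genes were higher in PH Cfib. Over all listed Cfib genes the share called higher was 58.2%. Mural sums ran from 98.2 to 134 in CO and from 229 to 240.3 in PH Cfib, led by ACTA2, and leukocyte sums from 11.2 to 13.8 and from 17.2 to 19.0, with C1QA and C1QB listed at 0 in all CO libraries. All 5 listed fibroblast genes were higher, and no gene of the cardiomyocyte, erythrocyte or lymphatic lists had a row. The part of these cell types in the change of ESAM was not tested.

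**Figure D5:**
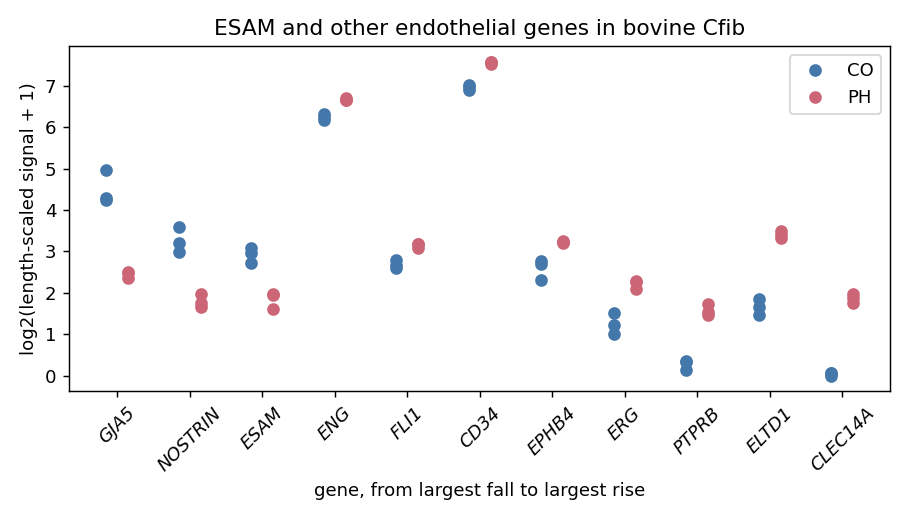
Log2(length-scaled signal + 1) of ESAM and 10 other endothelial genes in the 3 CO (blue) and 3 PH (red) bovine Cfib libraries, 1 point per library. GJA5, NOSTRIN and ESAM are lower in all 3 PH libraries and the other 8 genes are higher.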

How the data were processed

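RNA of 6 ARVM and 6 Cfib libraries was, per the study, depleted of ribosomal RNA, sequenced on a HiSeq4000 and aligned with HISAT2 and StringTie to rn6 or bosTau8. The authors kept genes expressed above 1 in a condition with a p-value under 0.05. The deposited ARVM signal is a count divided by 1 size factor per library. Dividing by the step of each library gave whole reads for 100% of values (tolerance 0.01 reads), 12122463 to 18842171 listed reads per library. The total depth is unknown. The deposited Cfib signal is scaled by length, and its unit and depth are not given in the sources used here.

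From the deposited values, log2(value + 1) was tested with limma 3.58.1 in R 4.3.3 (moderated variance with a trend, no filter), with adjustment over each table. On recovered reads, DESeq2 1.42.0 and edgeR 4.0.16 (TMM, quasi-likelihood) were alternatives. The script was tested on simulated data: of 200 shifted genes (log2 fold change 2), limma found 192 in the ARVM design with 7052 genes and 200 in the Cfib design with 2115.

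Named were all markers, the 8 largest changes and those against the trend among further endothelial genes, all listed ligands and lymphatic genes, and up to 4 genes with the highest mean in the other lists (cardiomyocyte, fibroblast, leukocyte, mural, erythrocyte); others (Thy1, Mfap5, Ptprc, Rgs5, Abcc9, Cspg4, Myh7, C1QB) were chosen after their values were seen. Markers and lists were chosen with earlier results of these data known. Sequences are from RefSeq, build GRCr8, and only symbols link them to rn6 values.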

Additional observations from a re-analysis of the deposited data

How the results depend on the processing

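Over 151 recomputed log2 fold changes of the 10 rat markers and of bovine ESAM, 150 kept their direction and side of the threshold and 1 (Esam, scaled to the listed total, given above) fell short of it. Passing again was likely from the start, because the listed genes had been selected for a difference. The main limma fit called 43.7% of ARVM genes lower and 53.9% higher, and 39.4% and 58.2% of Cfib genes. The count thus describes dependence on the settings and not whether a change is present. The alternatives were pseudocounts of 0.1 and 10, a minimum mean (50 for ARVM, 5 for Cfib), the median of ratios, no trend, each library left out, edgeR and DESeq2 for ARVM, and scaling to the listed total, which was added after the data were seen. That scaling shifted the log2 fold changes of all ARVM genes by a median of 0.42, called 1588 genes lower instead of 3080, and moved the share of calls that were higher from 55.2% to 71.6%. It left 8 of 10 markers and 21 of the 32 further endothelial genes called lower, and gave Emcn a log2 fold change of 0.95. With every other setting 9 markers and 26 further genes were called lower. The adjusted p of Emcn reached 0.0498 without PH-CM library ha209. In Cfib the median of ratios shifted the log2 fold changes by −0.27 and moved the share of calls that were higher from 59.6% to 49.2%, and ESAM stood at −1.30 with it and at −0.40 with a pseudocount of 10. ESAM was under the minimum mean of 5 and has no value there. A replicate block in Cfib gave ESAM an adjusted p of 0.00275 from limma and 792 genes called lower instead of 833. The deviations of equally numbered Cfib libraries had correlations of 0.258, 0.0312 and 0.259, so these libraries share a number and are not shown to be pairs. No paired analysis of ARVM was possible because the groups share no replicate number. Depth limits the lowest genes, such as Nostrin in ARVM.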

Other observations

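Among freshly isolated ARVM, library con4 had the highest value for 8 of the 10 markers and library con6 the lowest for 7. Over all listed genes library con4 was highest for 42.2% and library con6 lowest for 33.2%. Among the 32 further endothelial genes, library con6 was lowest for 21, and libraries con4 and con5 were each highest for 15, or 46.9%. For con4 this lay near its share over all listed genes, whereas con5 was highest for 29.6% of those. Among genes called lower, con4 was highest for 45.3%, con5 for 26.3%, and con6 was lowest for 38.0%. Among PH-CM ARVM, library ha2 was lowest for 8 of the 10 markers and for 21 of the 32 further genes. It was lowest for 27.6% of all listed genes and for 26.7% of genes called lower. The genes share their libraries, and these counts describe 6 libraries. Library con4 also had the fewest listed reads, 12122463.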
